A study of Paralichthys olivaceus with 2 samples.

Results

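The oligonucleotides described here are 183 probes on a small RNA microarray hybridised with larvae of Paralichthys olivaceus (Japanese flounder), a fish that turns from a symmetric swimmer into a flatfish at metamorphosis. They are candidate small RNAs that the array names with a PC code. Of 987 probes on the array, 544 carried such a code. A member had a mean density (spot brightness, linear scale) under 10000 on both arrays, and its target had no exact overlap of 14 nt or more, end to start or nested, with the target of another PC probe. The members were thus chosen by measured density and by target sequence, so the ceiling on brightness and the lack of long end overlaps are no findings. Of the 544, 524 met the first condition and 187 the second, and 183 met both.

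One array was hybridised with RNA of larvae at 17 days post hatching (dph), before metamorphosis, and one with RNA at 29 dph, in mid-metamorphosis. Each RNA came from a pool of 5 whole larvae, which were anaesthetised when collected, and the labels name no strain and no other treatment. Small RNAs were tailed, tagged and stained with Cy5. With 1 array per stage there was no replicate of a stage and no test between stages. Each SD below is over the 3 spots of a probe and covers the technical spread within an array only. A change in RNA per cell cannot be told apart from a change in the share of a cell type in whole larvae.

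MicroRNAs are short RNAs of about the length of the longer targets here. They guide the silencing complex to messenger RNAs mainly through the seed, bases 2 to 8 from the 5′ end, and related miRNAs share that seed. A labelling reaction that adds a tail to small RNAs also labels pieces of longer RNAs, such as transfer and ribosomal RNA. The files used here give no gene, precursor or locus for a PC code, so targets are described by their letters alone.

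Several kinds of target recur in the results and are shown first, as the files give them, 5′ to 3′. The first kind ends in CCA, in capitals, and is shown because 10 of its 11 members were lower at 29 dph. In mature transfer RNAs CCA is the 3′ end. No origin was assigned to these targets.
PC103: agucggaucgcccugaCCA
PC335: aucccagcagugccuCCA
PC290: guccugccgcggucgCCA
PC229: ccccggcaucuccaCCA
PC236: uucccggcuaaugcaCCA
PC261: ccugccgacaacgCCA
PC211: gaccgggcagaaacaCCA
PC73: cucccgguaugggaaCCA

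The second kind holds the run CAGUCCG, in capitals, and is shown because members that hold it lay within or near the range of single empty spots. As background, this run is also found in the 5′ adapter oligonucleotide of widely used small RNA sequencing kits. How the candidates were selected is not given in the sources used here.
PC491: uaCAGUCCGacgaucugc
PC277: uaCAGUCCGacgauacgc
PC371: uaCAGUCCGucgaucugc
PC207: uaCAGUCCGaccauccgc
PC545: aCAGUCCGacgcuccgc

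The third kind has the seed, in capitals, of a probe for a conserved miRNA on the same array. Each is followed by the conserved target closest to it.
PC42: uGGAAUGUaaggaaguguuu
dre-miR-206: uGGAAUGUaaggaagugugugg
PC331: gUGAAAUGuuuaggaccacugg
dre-miR-203a: gUGAAAUGuuuaggaccacuug
PC328: aACAUUCAuugcugucgcuggga
dre-miR-181b: aACAUUCAuugcugucgguggg
PC508: uGUAACAGcaucuccauaugga
dre-miR-194a: uGUAACAGcaacuccaugugg
PC424: aAGGUCCAaccucacauguccu
dre-miR-2188: aAGGUCCAaccucacaugucc

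The last kind shares a run, in capitals, with another member without meeting the overlap limit. The first pair shares an internal run of 19 nt and the next pairs overlap end to start by 11 and 10 nt.
PC447: gaCGCGCAUGAAUGGAUGAACaa
PC463: CGCGCAUGAAUGGAUGAACgaaa
PC10: auagcucuuUCUCGAUUCUG
PC11: UCUCGAUUCUGuggguggu
PC384: cggugaguAGAGCCGUUC
PC533: AGAGCCGUUCgugaaagg

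Bright or strongly changed members outside these kinds are shown in lower case throughout.
PC400: ucaagcaggaggugucag
PC383: gaguuugacuggggcggga
PC369: auaugucgagcacugagc
PC484: aucgcuuacggccauaccacccu
PC323: ucccugguggucuagugguucg

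The targets were 16 to 23 nt long, with a median of 18 nt. Lengths fell into 2 ranges, since 121 members were 19 nt or shorter, 15 were 20 or 21 nt and 47 were 22 or 23 nt. GC content ran from 17.6% in PC218 to 88.2% in PC246, with a median of 56.5%. The median was 66.7% in the 341 dim PC probes with an overlap of 14 nt or more, and 43.5% in the 263 conserved miRNA probes. The first base was U in 63 members, A in 48, C in 40 and G in 32.

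The word lone holds for long end overlaps with other PC probes only. Overlaps of 8 to 13 nt with another PC probe were found in 66 members, and 117 had shorter ones. In addition, 14 members shared an internal run of 14 nt or more with another PC probe, which the selection did not count. Of these 14, 11 held CAGUCCG or the related run UACAGUC. Members that overlap share target sequence and are no independent measurements of an RNA.

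Detection was read against the 715 empty spots of each array. The limit was the mean + 3 SD of these spots, a density of 68.7 at 17 dph and 45.6 at 29 dph. Of the empty spots 2 (0.280%) lay above it at 17 dph. At 29 dph 0 of 715 did, which allows a share of up to 0.420% and covers counting error only. These shares are of single spots, and the same spots set the limit, so they do not measure false detection of members. Detection asked for 50% or more of a probe's spots to exceed the limit. At 17 dph 65 of 183 members (35.5%) were detected, against 41.7% of all 987 probes. At 29 dph 107 members (58.5%) were detected, against 69.7% of all probes. The shares at 17 and 29 dph were 25.9% and 50.2% in conserved probes and 32.2% and 61.1% in probes with a PN code. In PC probes with a long overlap they were 58.9% and 93.5%. All 65 members detected at 17 dph were among the 107, so that 42 were detected at 29 dph only, 76 on neither array and 0 at 17 dph only.

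The 76 undetected members had densities of 37.9 to 45.6 at 29 dph, with a median of 41.2. The empty spots of that array ran from 33.3 to 44.7 with a median of 38.8, so most of the members' range was shared with empty spots. At 29 dph 51 members had a mean within 10% of the limit, at 17 dph 9 did. The brightest empty spot stood at 197.7 at 17 dph and at 44.7 at 29 dph. With the median + 3 scaled MAD of the empty spots as the limit, 80 members were detected at 17 dph and 104 at 29 dph. With the brightest empty spot as the limit these counts were 27 and 109.

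Detected members were mostly dim. Their median density was 161.9 at 17 dph and 285.7 at 29 dph. The median spot CV was 9.28% at 17 dph and 6.27% at 29 dph. The brightest member at 17 dph was PC484, at 3894 ± 167, followed by PC323 at 2989 ± 103 and PC103 at 2447 ± 187. PC369 at 781 ± 96.5 and PC150 at 776 ± 60.9 came next, within their spot SD of each other.

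At 29 dph PC400 was the brightest, at 9234 ± 601, with PC484 next at 9003 ± 988. PC53 stood at 7059 ± 231, PC383 at 5614 ± 361 and PC150 at 5604 ± 547. PC484 and PC150 stood among the 5 brightest on both arrays. Brightness was not set against the amount of RNA, since probes differ in binding.

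PC400 and PC484 lay just inside the density ceiling. Of PC probes without a long overlap, 4 lay outside it through their density at 29 dph. PC351 had 12390 ± 963 there and PC445 had 12702 ± 491, while PC18 and PC490 had 25485 ± 1198 and 31577 ± 1017. At the overlap limit, density at 29 dph had a median of 66.1 over the 11 members with 13 nt and of 507.4 over the 15 dim PC probes with 14 nt.

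Detection was more frequent at higher GC content at 29 dph. The share at 17 dph rose only from 50% GC upwards. At 29 dph 3 of 13 members under 40% GC were detected, 17 of 39 at 40 to under 50%, 31 of 56 at 50 to under 60%, and 56 of 75 at 60% and over. At 17 dph the counts in the same order were 2 (15.4%), 6 (15.4%), 17 (30.4%) and 40 (53.3%). The lowest member in GC content, PC218, was undetected with 44.7 ± 2.14 and 37.9 ± 0.789. The highest, PC246, was undetected at 17 dph with 48.1 ± 6.13 and detected at 29 dph with 78.7 ± 6.25.

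Taken one at a time, length went with a smaller difference in detection than GC content did. As length and GC content were related, these shares do not separate them. At 29 dph 73 of 121 members of 19 nt or less (60.3%) were detected, 9 of 15 of 20 to 21 nt, and 25 of 47 of 22 to 23 nt (53.2%). At 17 dph the counts in the same order were 49, 3 and 13. The GC classes lay furthest apart in the short targets. Of those of 19 nt or less, 2 of 17 under 50% GC were detected at 29 dph and 51 of 67 at 60% and over. Among targets of 22 to 23 nt, 13 of 23 were detected at 40 to under 50% GC and 2 of 4 at 60% and over. At 40 to under 50% GC, 2 of 12 targets of 19 nt or less were detected, so detection differed by length within that class. PC221, a 16-nt member that was the brightest of that length at 29 dph but not at 17 dph, had 332.2 ± 33.6 at 17 dph and 3605 ± 229 at 29 dph.

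The overlapping PC probes were detected more often in every GC class at 29 dph. The counts were 11 of 23, 21 of 24, 51 of 55 and 236 of 239 from the lowest to the highest class. Their whole share at 29 dph was 93.5%, against 58.5% of the members. The shares at 17 dph were 58.9% and 35.5%. In the 2 lower GC classes the order was reversed at 17 dph. There 0 of 23 and 2 of 24 overlapping probes were detected, against 2 of 13 and 6 of 39 members. In the 2 higher classes the counts were 25 of 55 and 174 of 239, against 17 of 56 and 40 of 75. Both groups lay under the density ceiling and were separated by target overlap. This is a description without a test.

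Of the members 19 (10.4%) held CAGUCCG, as did 3 of 341 overlapping PC probes and 0 of 263 conserved and 180 PN-coded probes. Of the 3 overlapping probes 2 were detected on both arrays, PC377 with 91.9 and 485.2 and PC459 with 81.7 and 333.8. The 7 letters were searched on the target strand only, and the run was chosen after the values were seen. At 17 dph 0 of the 19 members were detected. At 29 dph 1 was, PC545, whose mean of 44.96 ± 1.35 lay below the limit although 2 of its spots were above it. The densities of the 19 spanned 42.6 to 48.4 at 17 dph and 38.6 to 45.0 at 29 dph. PC491 had 43.5 ± 2.91 and 43.1 ± 1.28, and PC371 had 45.2 ± 2.82 and 38.6 ± 0.605. Apart from PC545 at 29 dph, which lay just above the brightest empty spot, these values were within the range of the empty spots of the array. That range is of single spots, whereas each member value is a mean of 3. The median of the 19 was 44.9 at 17 dph and 41.4 at 29 dph, against 45.6 and 38.8 for the empty spots. Without the 19, 106 of 164 members (64.6%) were detected at 29 dph. As only 1 of the 19 was detected there, leaving them out had to raise the share. In the class of 50 to under 60% GC and 19 nt or less, the count was 20 of 37 with them and 20 of 27 without.

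The stages were compared on quantile-normalized log2 signals, which give all probe spots the same distribution on both arrays. A detected member was called higher or lower at 29 dph where the 29 dph value minus the 17 dph value reached 1 on the log2 scale, in either direction, with no overlap of spot ranges. Of the 107 detected members 16 (15.0%) were higher, against a background of 12.6% of the 688 detected probes. Another 16 were lower, against 12.1%, and 75 were neither. The shares were near the background. The median log2 difference was 0.045 over the members and 0.050 over all detected probes.

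Without scaling the median difference was 1.57 over the members and 1.59 over all detected probes, and 64 members were higher and 5 lower. Scaling to the median of probes detected at both stages gave 18 higher and 48 lower, and scaling to the conserved miRNA probes gave 29 and 35. Lower and higher therefore mean relative to the other probes. Counts over all detected probes under these scalings are not given here, so the counts of members have no background beside them. In plain density 90 of the 107 were brighter at 29 dph and 17 were dimmer. Over all 688 detected probes 641 were brighter and 47 dimmer. Of the 107, 42 were detected through the 29 dph array only.

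All 16 lower members were detected on both arrays, and 10 of them ended in CCA. PC103 had the largest difference. Its density was 2447 ± 187 at 17 dph and 483 ± 22.5 at 29 dph, and its log2 difference was -4.59, or -2.30 without scaling. PC335 had 356 ± 24.3 and 117.0 ± 11.1, with a difference of -3.41. PC290 had 265.9 ± 22.8 and 106.4 ± 2.11, with a difference of -3.05. In all 3 the spots at 29 dph lay below those at 17 dph in plain density too.

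PC229 had 197.1 ± 19.8 and 67.5 ± 5.78, with a difference of -2.85. PC236 had 242.8 ± 38.7 and 130.4 ± 10.8, with a difference of -2.72. These 5 members ending in CCA were negative under each of the 7 ways of scaling and background correction compared here. So were PC251 and PC137, described below, though only at -0.022 and -0.10 without scaling. PC261 (282.1 ± 16.8 and 281.2 ± 23.1) and PC211 (270.6 ± 31.9 and 285.7 ± 2.88) kept their density while most probes grew brighter. Their differences were -2.31 and -2.20, and 0.0025 and 0.088 without scaling.

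PC346, at -1.72, PC251, at -1.37, and PC137, at -1.32, made up the 10. At 29 dph, where the limit was 45.6, they had densities of 131.2 ± 7.63, 85.6 ± 9.14 and 74.4 ± 7.08. The naming rule did not cover these 3. PC137 and PC211 share a run of 9 nt at their 3′ ends, and most of the bases before it match too. PC251 is likewise close to PC137, and PC346 to PC236, when aligned at the 3′ end. Such members are not clearly separate targets, and whether they bound the same RNA was not tested. PC73, the other member with this ending, was below the limit at 17 dph with 49.1 ± 1.88. It stood at 205.1 ± 22.7 at 29 dph, with a difference of 0.82 in the other direction.

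Of all members 6.01% ended in CCA, against 1 of 341 overlapping PC probes, 2 of 180 PN-coded probes and 2 of 263 conserved ones. Of these 5 other probes 0 were lower. The conserved ones, dre-miR-23a and dre-miR-23b, had differences of 0.94 and 0.16. All 11 members with this ending were 16 to 19 nt long with a GC content of 55.6% to 77.8%. Among the 54 detected members of 19 nt or less, at least 55% GC and another ending, 1 was lower and 9 were higher, and the median difference was 0.23, against -2.31 for the 11. The ending was picked out after the differences were seen, so these counts have no test.

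Of the 6 lower members with another ending, PC369 was the lowest. It had 781 ± 96.5 at 17 dph and 206.1 ± 14.6 at 29 dph, with a difference of -4.04, or -1.83 without scaling. PC376 had 477.5 ± 59.0 and 505.1 ± 21.7, with a difference of -2.47. PC376 and the remaining 4 were brighter at 29 dph in plain density. PC323 went from 2989 ± 103 to 5412 ± 433, with a normalized difference of -1.80. PC484 went from 3894 ± 167 to 9003 ± 988, with one of -1.42. PC443 and PC424 had -1.06 and -1.004. For PC376 and these 4 the sign turned without scaling.

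The 16 higher members had densities of 46.9 to 269.6 at 17 dph and 249.1 to 9234 at 29 dph. All 16 were brighter at 29 dph in plain density, by 5.31 to 42.5 times. Of them, 13 were detected on both arrays and 3 at 29 dph only. PC42 had the largest difference, 2.62, with 114.8 ± 18.9 at 17 dph and 4877 ± 202 at 29 dph. PC400 had 242.8 ± 22.4 and 9234 ± 601, with a difference of 2.496. PC383 had 153.2 ± 22.2 and 5614 ± 361, with a difference of 2.36. In these 3 members the 29 dph spots lay far above the 17 dph spots, and the difference stayed over 2 whichever of the 7 ways was taken.

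PC422, at 1.71, PC374, at 1.64, PC384, at 1.52, PC447, at 1.45, PC463, at 1.35, PC310, at 1.34, and PC143, at 1.32, followed. PC422 had densities of 170.2 ± 32.1 and 3931 ± 173, and PC143 had 101.6 ± 2.42 and 1624 ± 133. Of the 16 higher members, 15 were positive under the 7 ways of scaling and background correction. The exception was PC10, at -0.32 with scaling to the median of probes detected at both stages.

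The 3 members detected at 29 dph only have approximate lower bounds, which hold on the quantile-normalized scale only. PC136 was at least 3.04-fold higher, with 58.0 ± 2.95 at 17 dph and 984 ± 102 at 29 dph. PC518 was at least 1.86-fold higher, with 53.4 ± 5.26 and 548.4 ± 31.7. PC10 was at least 1.08-fold higher, with 46.9 ± 4.79 and 249.1 ± 6.41. The bound sets the quantile-normalized signal at 29 dph against the lowest such signal of a detected probe at 17 dph, 7.12. It is approximate, since PC328 was undetected at 17 dph with a signal of 7.13. The calls used the measured differences, and the bounds of PC518 and PC10 lie under the 2-fold threshold. With scaling to the median of probes detected at both stages, the log2 differences of PC136, PC518 and PC10 were 1.35, 0.63 and -0.32.

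The log2 difference had little relation to GC content or length in the members. Spearman's rho with GC content was -0.11 over the 107 detected members and -0.17 over the 65 detected on both arrays. With length it was -0.082 and 0.1005. The points share 2 arrays and 1 scaling, GC content and length were themselves related (rho -0.54 over the 107), and no p is given. The rho with GC content was -0.53 over the 319 detected overlapping PC probes and -0.66 over 132 conserved probes. Without scaling these values were -0.17 and -0.13, and that of the members was 0.083. Over probes detected on both arrays, rho was -0.46 for 201 overlapping PC probes and -0.50 for 68 conserved ones. Without scaling it was then -0.46 and -0.42, and -0.16 for the members. On the normalized signals, rho over all 688 detected probes was -0.082 with GC content and -0.28 with length. Over the 412 probes detected on both arrays these values were 0.085 and -0.28. The differences between the members and the other probes were not tested.

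By GC class, the median difference of detected members was 0.26 under 40% (3 members), 0.031 at 40 to under 50% (17), -0.057 at 50 to under 60% (31) and 0.055 at 60% and over (56). By length it was 0.11 at 19 nt or less (73), -0.0035 at 20 to 21 nt (9) and -0.083 at 22 to 23 nt (25). The calls were spread otherwise: 0 of 20 detected members under 50% GC were lower and 6 were higher, whereas 16 of the 87 at 50% GC and over were lower and 10 higher. Over all detected probes 12.6% were higher and 12.1% lower. Of the 16 lower members 10 ended in CCA, all at 55.6% GC or more. Among overlapping PC probes 0 of 11 under 40% GC and 0 of 21 at 40 to under 50% were lower too. In conserved probes these counts were 0 of 24 and 8 of 66, and in PN-coded probes 1 of 20 and 9 of 47. Without the members ending in CCA, 6 members were lower and the rho with length was -0.19.

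Of the members 20 had the seed of a conserved miRNA probe, 14 of them among the 47 targets of 22 or 23 nt. The share was 10.9%, against 0.587% of overlapping PC probes and 56.7% of PN-coded probes. At 17 dph 4 of the 20 (20%) were detected and at 29 dph 12 (60%) were. Of all members 35.5% and 58.5% were detected, and of all probes 41.7% and 69.7%. In 15 the whole target differed from that of the closest conserved probe at no more than 5 positions, counted with both aligned at the 5′ end. Of these 15, 10 were detected at 29 dph, in 7 of them together with the conserved probe.

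PC42 had the seed of dre-miR-206 and dre-miR-1, miRNAs of skeletal and heart muscle. It shared its first 18 bases with dre-miR-206 and differed at 1 of 20 positions. The dre-miR-206 probe had 1653 ± 52.0 at 17 dph and 10711 ± 254 at 29 dph, with a difference of 0.22, and the dre-miR-1 probe had 46.7 ± 4.20 and 7729 ± 431. The latter was not detected at 17 dph and had a difference of 5.48. The difference of PC42, 2.62, lay between those of the conserved probes, with no test. Whether PC42 also bound RNA of these miRNAs was not tested.

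PC331 differed from dre-miR-203a, a skin miRNA, at 1 of 22 positions. It had 220.0 ± 13.6 at 17 dph and 2873 ± 93.0 at 29 dph, and the conserved probe had 251.2 ± 24.5 and 3170 ± 426. Their differences were 0.82 and 0.70. PC328 differed from dre-miR-181b at 1 of 22 positions. PC328 had 66.0 ± 3.22 at 17 dph, below the limit, and 200.7 ± 9.61 at 29 dph, where dre-miR-181b had 233.5 ± 17.1 and 1092 ± 108. Both probes of the first pair were thus detected on both arrays, whereas PC328 was detected at 29 dph only.

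PC508 differed from dre-miR-194a, known from liver and gut, at 2 of 21 positions. It was detected at 29 dph only, with 66.5 ± 5.78, where dre-miR-194a had 1368 ± 53.0. PC56 differed from dre-miR-24 at 2 of 22 positions and had 59.7 ± 6.24 and 229 ± 189, beside 117.1 and 263.8 for dre-miR-24. The spots of PC56 at 29 dph thus lay far apart, and its value there is uncertain. PC223 had the miR-196 seed, known from the Hox clusters. It was detected at 29 dph with 106.7 ± 6.59, while the closest conserved probe, dre-miR-196a, was not detected with 43.3 ± 2.09. PC10 had the seed of dre-miR-458, whose probe was undetected on both arrays.

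Targets of 5 members overlapped a conserved target by 14 nt or more, end to start or nested. Others shared a long run with a conserved target without such an overlap, among them PC110 and PC331 with 20 nt. PC340, PC36, PC521 and PC262 each overlapped a PN-coded target by 21 nt, and PC131 did so by 18 nt. PC424 held the whole target of dre-miR-2188 and 1 base more. Its densities were 77.2 ± 7.80 and 94.2 ± 10.7, those of dre-miR-2188 were 67.2 and 85.1, and the differences were -1.004 and -0.80. PC204 held the target of dre-miR-2184 and was detected at 29 dph with 65.7 ± 5.96, where the conserved probe stood at 41.9. PC170, which holds the target of dre-miR-1788*, PC262, which overlaps dre-miR-459 by 18 nt, and PC257 were undetected on both arrays. PC257 overlaps dre-miR-24 by 15 nt end to start, and the dre-miR-24 probe itself was detected on both arrays.

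Some targets were complementary to others. PC111 and PC375 were complementary over 21 nt, and both were undetected, with 42.6 and 46.7 at 17 dph and 39.7 and 40.5 at 29 dph. PC61 was complementary to dre-miR-205 over 20 nt. It was undetected with 46.6 and 43.5, whereas dre-miR-205 was detected with 110.3 and 281.3. PC183 was complementary over 15 nt to PC147, another member, and over 19 nt to dre-miR-181a*. It was also complementary over 20 nt to PN177, which was detected with 79.4 and 84.7. PC183 was undetected, and PC147 was detected at 29 dph only, with 58.6.

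Some members share part of their target with each other. End overlaps of 9 to 13 nt linked 25 pairs of members. In 14 pairs neither was detected at 29 dph, in 3 pairs 1 was, and in 8 pairs both were. The log2 differences of the 8 pairs had the same sign in 6 and lay a median of 0.26 apart. PC10 and PC11 both had 1.12, and PC384 and PC533 had 1.52 and 1.07. PC310 and PC150, which overlap by 9 nt, lay furthest apart at 1.34 and -0.10. PC310 had 258.5 ± 33.3 at 17 dph and 5109 ± 423 at 29 dph, and PC150 had 776 ± 60.9 and 5604 ± 547.

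PC447 and PC463, with an internal run of 19 nt in common, had 228.7 ± 32.0 and 269.6 ± 26.5 at 17 dph. At 29 dph they had 4787 ± 188 and 5429 ± 356, and their differences were 1.45 and 1.35. All 16 lower members, 10 of them ending in CCA, were among the 117 with overlaps under 8 nt. Of these 117, 65 were detected and 9 were higher. Of the 66 with overlaps of 8 to 13 nt, 42 were detected, 0 were lower and 7 higher. Over all detected probes 12.6% were higher and 12.1% lower. A relation between overlap and call was not tested.

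The members with none of the 3 features (the ending CCA, the run CAGUCCG or a conserved seed) numbered 133. At 17 dph 51 of them (38.3%) were detected and at 29 dph 83 (62.4%) were, against 41.7% and 69.7% of all probes. Leaving out members holding CAGUCCG raised these shares, and leaving out those ending in CCA lowered them. Of the 83, 14 were higher and 5 lower, with a median difference of 0.11. Over all detected probes 12.6% were higher and 12.1% lower. The count of lower members was lowered by the choice, since 10 of the 16 lower members ended in CCA. That ending was picked out after the differences were seen.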

How the data were processed

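The arrays analysed were 1 at 17 dph and 1 at 29 dph, each with 987 probes in 3 spots. The deposited scanner tables give a linear mean density per spot (median of the empty spots 45.6 at 17 dph and 38.8 at 29 dph), with no background or scaling step visible in the values. The authors' deposited series table gives 1 processed intensity per probe, whose background and scaling steps neither the labels nor the table state. It was used as an alternative, on the log2(value + 50) scale.

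Densities were background-corrected (normexp on all spots, offset 50) and quantile-normalized over the 2961 probe spots with limma 3.58.1 in R 4.3.3, then averaged per probe as log2 values. Other values were computed in Python 3.11.15 with SciPy 1.17.1, NumPy 2.4.6 and pandas 2.3.3. The 7 ways of scaling and background correction were this one, no scaling, scaling to either of the 2 medians (probes, or conserved probes, detected at both stages), cyclic loess, plain background subtraction and no background correction. The calls were tested on simulated arrays, both built from the 29 dph signal with the same noise. This tested the procedure only, and could not test calls that depend on the scaling between the stages. The number of arrays limits the precision.

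Members, classes and features were chosen with earlier results of these data known. Named by rule were up to 10 most positive and 10 most negative differences among called members detected at both stages, up to 5 detected at 1 stage, the 5 brightest per array, the extremes of length and GC content, members overlapping a conserved probe, and those at the limits. Other members named (PC346, PC251, PC137, PC443, PC533, PC388, PC11 and those in the descriptions of shared sequence) were chosen after their values were seen. PC388 had a difference of 1.09. Alternatives are given in the closing section.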

Additional observations from a re-analysis of the deposited data

How the results depend on the processing

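The calls of the 32 higher or lower members were recomputed under other settings. Of 653 values over 21 alternatives, 602 kept direction and call, 42 kept direction only and 9 turned. Alternatives that changed only a threshold, a detection limit, a filter or the set of members could not turn a direction. The 602 is therefore no measure of stability. All 9 turns came with no scaling or with scaling to the median of probes detected at both stages. Without scaling, 64 members were higher and 5 lower, the median difference was 1.57, and rho was 0.083 with GC content and -0.019 with length. Then 8 lower members turned, PC323 to 0.85, PC484 to 1.20, PC443 to 0.68, PC424 to 0.27, PC376 to 0.090, PC211 to 0.088, PC346 to 0.023 and PC261 to 0.0025. Scaling to the median of probes detected at both stages gave 48 lower members, a median of -0.85, the same rho values of 0.083 and -0.019, and -0.32 for PC10. Scaling to the conserved probes gave 29 higher and 35 lower, with rho again 0.083 and -0.019. These scalings shift every difference by a constant, which cannot change a rank relation. Their counts over all detected probes are not given here. Plain background subtraction gave 25 higher members. The number of calls followed the threshold, with 28 higher and 25 lower at 1.5-fold and 3 and 9 at 4-fold. Counts over all detected probes under that subtraction and at these thresholds are not given here. The counts of members thus have no background beside them. The brightest empty spot as limit left 27 members detected at 17 dph.

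The rho with GC content was -0.17 over members detected on both arrays, 0.012 with no filter, -0.16 and -0.15 with overlap limits of 12 and 16 nt, and -0.088 without the members ending in CCA. It was -0.0912 without those sharing an internal run. The rho with length in the same order was 0.1005, then -0.00883 and -0.14 for the overlap limits, -0.19 and -0.15. In the authors' table it was -0.11. Without the members ending in CCA 6 were lower. The settings that leave out members by a sequence feature were chosen after seeing the data. Where not stated, the cause was not tested. Values near the detection limit are limited by signal over background. No paired analysis was possible because each stage had 1 array.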
